A study of Mus musculus with 12 samples.

Results

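The Cyp2a and Cyp2b genes of the mouse encode cytochrome P450 enzymes and lie together on chromosome 7. The genes described here are Cyp2a4, Cyp2a5, Cyp2a12, Cyp2a22, Cyp2b9, Cyp2b10 and Cyp2b13, which were taken by name from the deposited gene tables. They are 7 of 57180 genes, and all 7 were among the 19350 genes with enough counts to be tested. Liver RNA came from 12 mice, 3 females and 3 males of each of the genotypes called Het and KO. Every mouse lacked Csa (annotated under the symbol Ercc8), and every mouse, controls included, had been given AAV9-CSA as a newborn by injection into the brain ventricles. AAV9-CSA is a viral vector that carries a human CSA cDNA behind a ubiquitous chicken β-actin promoter. The KO mice were CX mice, which lack both Csa and Xpa and were taken at the humane endpoint. The Het mice (Csa-/- Xpa+/-) were littermates of matched age, and single ages are not given in the sources used here. For the KO mice the labels give Csa-/- Xpa+/+, which disagrees with the description of CX mice, so the groups are called KO and Het throughout. Single livers are named as in the labels, by genotype, sex (F or M) and mouse number. No group had an intact Csa gene or went without the vector, so neither can be compared with a normal liver.

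Cytochrome P450 enzymes of these subfamilies are membrane proteins of the hepatocyte endoplasmic reticulum that insert oxygen into steroids, bile acids, fatty acids, drugs and plant compounds. They take electrons from P450 oxidoreductase (Por) and need heme. Cyp2a4 is known as a testosterone hydroxylase of the female mouse liver, Cyp2a5 as the coumarin and nicotine hydroxylase of both sexes, and Cyp2a12 as a bile acid and testosterone hydroxylase. Cyp2b10 is the classical target of the constitutive androstane receptor (CAR, Nr1i3), while Cyp2b9 and Cyp2b13 are known as female-predominant genes. Sex differences of such genes in the mouse follow the pattern of growth hormone release, which is pulsed in males and nearly continuous in females. That pattern is read through STAT5B and through the repressors BCL6, higher in males, and CUX2, higher in females.

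On GRCm39 the cluster of the 7 genes runs from base 25597045 to base 26736800 of chromosome 7, with each gene in 9 exons (GENCODE M39 annotation). In chromosome order the genes are Cyp2b10 (25597045 to 25626049), Cyp2b13 (25760922 to 25795622), Cyp2b9 (25872835 to 25910086), Cyp2a4 (26006594 to 26014513), Cyp2a5 (26534730 to 26542973), Cyp2a22 (26631056 to 26638809) and Cyp2a12 (26728506 to 26736800). Cyp2a22 is on the minus strand and the other 6 are on the plus strand. Close pairs stand out by sequence. The coding sequences of Cyp2a4 and Cyp2a5 differed at 23 of 1482 bases (98.4% identity), those of Cyp2a12 and Cyp2a22 at 45 of 1476 (97.0%) and those of Cyp2b9 and Cyp2b13 at 107 of 1473 (92.7%). Cyp2b10 was 87.8% identical to Cyp2b9 and 88.8% to Cyp2b13. Coding exon 4, of 161 bases, shows how the members of a pair can be told apart by a read. It is printed from GRCm39 for the pairs Cyp2a4 with Cyp2a5 (5 differences) and Cyp2b9 with Cyp2b13 (20 differences), in lower case with the differing bases in capitals.
Cyp2a4 exon 4, chr7:26008353-26008513, plus strand: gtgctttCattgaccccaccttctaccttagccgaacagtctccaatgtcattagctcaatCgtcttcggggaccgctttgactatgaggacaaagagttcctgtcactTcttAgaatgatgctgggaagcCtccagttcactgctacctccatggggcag
Cyp2a5 exon 4, chr7:26536516-26536676, plus strand: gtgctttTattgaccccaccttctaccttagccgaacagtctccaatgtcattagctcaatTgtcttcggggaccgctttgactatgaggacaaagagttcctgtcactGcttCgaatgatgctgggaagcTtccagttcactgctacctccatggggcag
Cyp2b9 exon 4, chr7:25887077-25887237, plus strand: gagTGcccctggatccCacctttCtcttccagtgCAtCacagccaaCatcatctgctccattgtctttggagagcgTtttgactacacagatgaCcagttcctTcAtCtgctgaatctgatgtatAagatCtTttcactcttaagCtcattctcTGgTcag
Cyp2b13 exon 4, chr7:25781074-25781234, plus strand: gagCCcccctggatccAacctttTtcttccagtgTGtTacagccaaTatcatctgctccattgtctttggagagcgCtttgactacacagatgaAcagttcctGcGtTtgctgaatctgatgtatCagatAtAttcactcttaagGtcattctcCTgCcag

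Stretches of the length of a sequencing read that a member shared exactly with another gene made up 4.16% of those in the Cyp2a4 transcript (with Cyp2a5), 5.63% in Cyp2a5 (with Cyp2a4 and the pseudogene Cyp2a21-ps), 3.66% in Cyp2a12 and 3.39% in Cyp2a22 (with each other), and 4.99% in Cyp2b13 (with Gm45225). Cyp2b9 and Cyp2b10 shared none. The counts are estimates by Salmon, which divides reads that fit more than 1 transcript. Part of the split between Cyp2a4 and Cyp2a5, and between Cyp2a12 and Cyp2a22, thus rests on that estimate. Cyp2b9 and Cyp2b13 shared no such stretch with each other. The sums of the pairs are given beside the results.

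The 250 bases ahead of the transcription start are printed for the Cyp2a4 and Cyp2a5 pair and for the Cyp2b9 and Cyp2b13 pair, the genes on which the results turn, again from GRCm39 with differing bases in capitals. The Cyp2a4 and Cyp2a5 windows, set off by 10 bases, differed at 5 of 240 aligned bases. Those of Cyp2b9 and Cyp2b13, set off by 1 base, differed at 2 of 249.
Cyp2a4 upstream, chr7:26006344-26006593, plus strand: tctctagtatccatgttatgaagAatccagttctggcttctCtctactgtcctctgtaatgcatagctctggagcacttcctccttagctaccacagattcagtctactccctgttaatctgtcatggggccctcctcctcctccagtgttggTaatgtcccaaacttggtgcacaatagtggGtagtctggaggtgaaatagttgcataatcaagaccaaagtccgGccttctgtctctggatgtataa
Cyp2a5 upstream, chr7:26534480-26534729, plus strand: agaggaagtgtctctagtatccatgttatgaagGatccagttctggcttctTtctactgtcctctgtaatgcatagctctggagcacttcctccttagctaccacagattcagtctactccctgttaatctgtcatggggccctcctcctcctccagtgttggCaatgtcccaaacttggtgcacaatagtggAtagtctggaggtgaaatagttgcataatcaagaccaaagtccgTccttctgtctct
Cyp2b9 upstream, chr7:25872585-25872834, plus strand: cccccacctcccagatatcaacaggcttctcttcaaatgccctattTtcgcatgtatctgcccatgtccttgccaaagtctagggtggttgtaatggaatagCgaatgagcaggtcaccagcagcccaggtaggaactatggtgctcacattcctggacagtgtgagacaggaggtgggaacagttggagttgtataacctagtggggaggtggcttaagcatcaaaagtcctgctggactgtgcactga
Cyp2b13 upstream, chr7:25760672-25760921, plus strand: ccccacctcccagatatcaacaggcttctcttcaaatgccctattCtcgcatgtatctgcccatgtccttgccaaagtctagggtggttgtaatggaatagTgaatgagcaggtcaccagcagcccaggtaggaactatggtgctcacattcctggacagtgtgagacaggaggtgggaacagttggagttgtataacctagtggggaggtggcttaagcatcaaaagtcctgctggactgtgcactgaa

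Each window was searched on both strands for short motifs. The letters CAAAGTCC, which fit the HNF4 motif and were chosen after the sequences had been read, were in the Cyp2a4 and Cyp2a5 windows and in 1.196% of 32851 RefSeq promoter windows of the same length (GRCm38.p6). TATAAA was in the Cyp2a12 and Cyp2a22 windows and in 12.4% of all promoters. The Cyp2a4 window ends in TATAA, and the Cyp2a5 window, set off by 10 bases, ends before that stretch. Letters across the annotated start were not searched. The STAT5 letters TTCNNNGAA (7.02% of all promoters), the HNF6 letters ATCAAT (6.72%) and the DBP letters TTATGTAA (0.819%) were in none of the 7 windows.

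The libraries held 30044812 to 43634073 counts assigned to genes, and livers of a group correlated at r = 0.974 to 0.989 on log2 CPM (counts scaled to library size, with TMM factors). Hepatocyte markers were present in every liver, with 9 of 10 listed genes summing to 71895 to 149067 CPM. Xpa was lower in KO livers, at 1.301 ± 0.458 CPM (SD, n = 3) against 3.46 ± 0.327 in females and at 1.19 ± 0.0561 against 5.96 ± 0.388 in males, with adjusted p of 0.00733 (0.0590 with female livers alone) and 0.000453. Ercc8 counts, which do not separate the mouse gene from any reads of the vector, were higher in KO livers in both sexes, at 29.3 ± 7.99 against 7.44 ± 2.03 CPM in females and 16.6 ± 2.94 against 6.88 ± 0.749 in males (adjusted p of 0.00228 and 0.0128, the latter lost without Het_M_125 at 0.0595 or Het_M_137 at 0.0527). Fold changes below come from edgeR's quasi-likelihood F test over all 19350 genes, with Benjamini-Hochberg adjustment and a threshold of 0.05, and p-values measure the spread between the mice sampled. Whole liver was used, so fewer cells of a type and less RNA per cell cannot be told apart.

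The question put to these genes was how KO and Het livers differed within each sex. In males, 5 of the 7 genes were higher in KO livers (Cyp2a4, Cyp2a12, Cyp2a22, Cyp2b9 and Cyp2b13) and none was lower, while 4.11% of the genes tested passed as higher and 2.8% as lower. In females, 1 gene was higher (Cyp2a12) and 1 was lower (Cyp2b13), beside 5.15% of all genes higher and 4.5% lower. The median log2 fold change of the 7 genes was 3.78 in males and -0.22 in females, beside medians of 0.02 and 0.01 over all genes tested. The KO effect was greater in males than in females for 2 of 7 genes (Cyp2a4 and Cyp2b9), where 0.0362% of all genes were called in that direction and 0.0103% in the other.

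**Figure D1:**
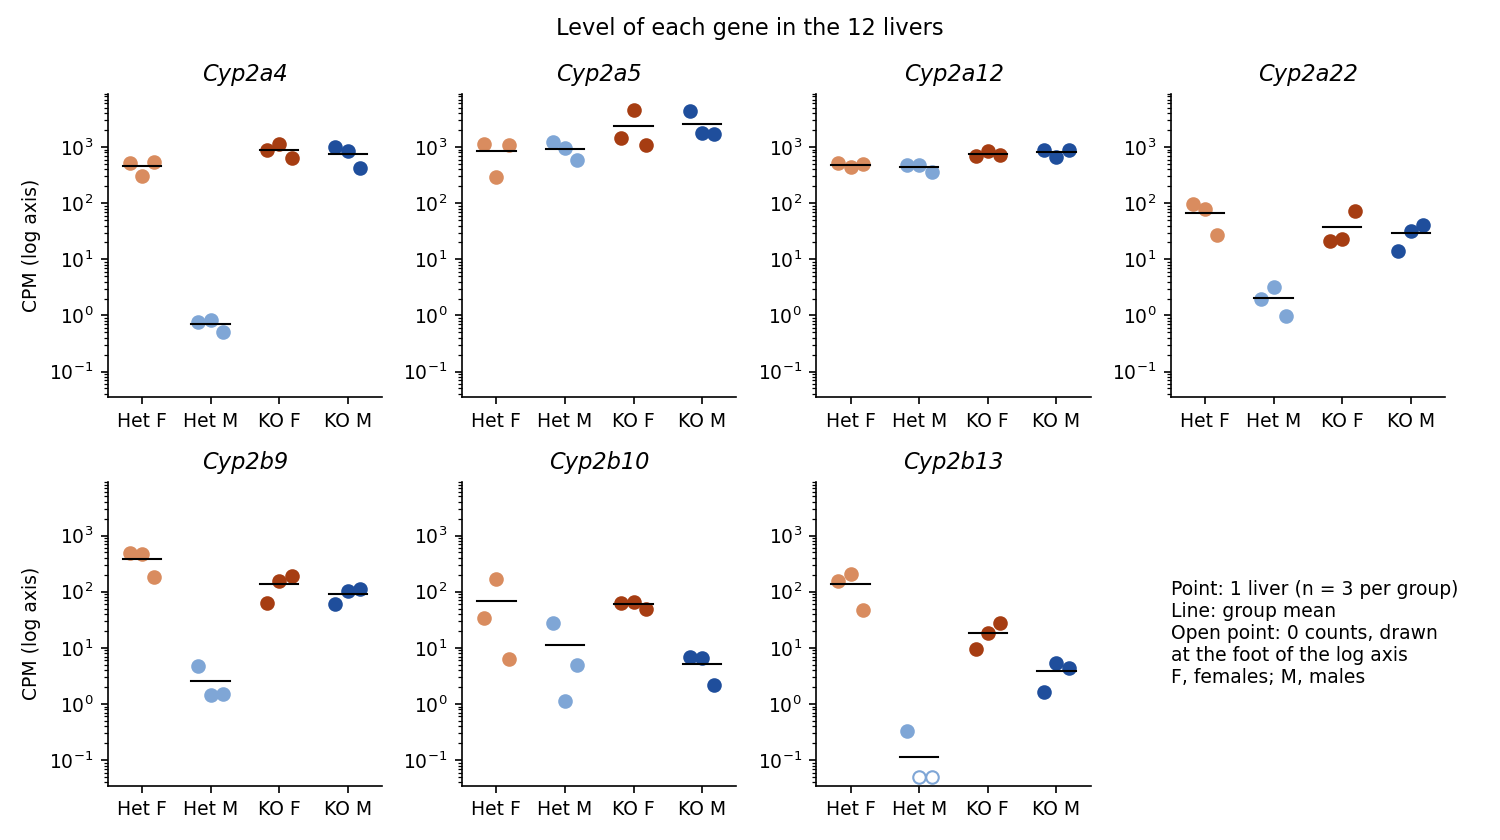
CPM of each of the 7 genes in each of the 12 livers on a log axis, with a panel for each gene, livers placed by group and open points for a count of 0. Cyp2a4, Cyp2a22, Cyp2b9 and Cyp2b13 have their 3 lowest points in the Het males, whereas for Cyp2a5 and Cyp2a12 males and females of a genotype overlap.

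Cyp2a4 had the smallest p of all 19350 genes in the male comparison. The 3 Het females stood at 512, 311 and 551 CPM, and the 3 Het males at 0.767, 0.813 and 0.512 CPM. The 3 KO females stood at 902, 1148 and 638 CPM, and the 3 KO males at 1013, 849 and 420 CPM. Every KO liver and every Het female thus held 311 CPM or more, and the Het males under 1 CPM. The log2 fold change of KO over Het was 9.98 ± 0.49 (SE) in males, with a 95% interval of 8.90 to 11.06 and an adjusted p of 3.12e-06. In females it was 0.97 ± 0.33 with an adjusted p of 0.0835, although the 3 KO females all lay above the 3 Het females. The difference between these effects was 9.01 (adjusted p = 3.55e-05), again the smallest p of all genes. Apart from the sum of the pair, given below, the male call held in each of 25 alternative settings, with log2 fold changes of 7.95 to 10.3.

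In Het males only 15.9 to 24.8 estimated counts were given to Cyp2a4, beside 18070 to 37470 given to Cyp2a5. These low values may depend on how reads that fit both genes were divided. Stretches shared with Cyp2a5 made up 4.16% of those in the Cyp2a4 transcript. The part of that division in the low values was not tested. Cyp2a4 took 0.0620% to 0.0880% of the counts of the pair in Het males and 18.8% to 32.7% in KO males, and 31.5% to 51.6% in Het females and 20.3% to 38.7% in KO females. The share in every KO male was far above that in any Het male. Gm42375, a non-coding RNA gene annotated on the other strand across the whole of Cyp2a4, had 0, 0 and 1 counts in Het males and 88 to 146 counts in KO males. Whether the counting used the strand is not given in the sources used here, so reads of Gm42375 and Cyp2a4 may be mixed. Its level was at least 31.6-fold higher in KO than in Het males against a floor of 3 counts per library.

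Cyp2a5, the coumarin hydroxylase, had the highest TPM of the 7 genes in all livers but Het_F_115, and its livers spread several fold within groups. Het females had 1117, 292 and 1102 CPM and Het males 1250, 967 and 578 CPM. KO females had 1426, 4503 and 1076 CPM and KO males 4382, 1747 and 1698 CPM. All 3 KO males lay above all 3 Het males, the female groups overlapped, and KO_F_112 and KO_M_118 were far above the other livers. The log2 fold change was 1.48 in females (95% interval -0.01 to 2.97, adjusted p = 0.179) and 1.49 in males (-0.00073 to 2.97, adjusted p = 0.213), so that neither passed the threshold and both intervals reached a rise of several fold. The effects of the sexes differed by 0.01, with a 95% interval of -2.05 to 2.07. Summed with Cyp2a4, the log2 fold change was 1.31 in females (adjusted p = 0.150) and 1.85 in males (0.0760). The sum was thus not called in males. Cyp2a4 took at most 0.0880% of the pair's counts in Het males and 32.7% in KO males, so the sum mostly follows Cyp2a5. It therefore cannot decide whether the call of Cyp2a4 holds.

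Cyp2a12 was the steadiest member and rose in both sexes. Females had 522, 444 and 498 CPM in the Het group and 694, 864 and 711 CPM in the KO group. Males had 478, 486 and 362 CPM in the Het group and 897, 673 and 870 CPM in the KO group. No KO liver was as low as any Het liver of either sex. The log2 fold change was 0.63 ± 0.17 in females (adjusted p = 0.0400) and 0.88 ± 0.17 in males (adjusted p = 0.0131), and the effects differed by 0.25 (adjusted p = 0.779). The female call was lost on leaving out any of 9 of the 12 livers (all but Het_M_137, KO_F_123 and KO_M_122), with adjusted p up to 0.116. It was also lost with female livers alone (0.106). The 9 include male livers, which enter this comparison only through the shared estimate of spread and the adjustment. With a liver left out the female log2 fold change stayed at 0.53 to 0.67. The male call was lost without Het_M_137 (adjusted p = 0.0527) or KO_M_118 (0.0600).

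Cyp2a22, its close paralog on the opposite strand, had another pattern. Het females held 97.4, 78.5 and 26.6 CPM and Het males 2.002, 3.19 and 0.960 CPM. KO females held 21.1, 22.6 and 71.2 CPM and KO males 13.97, 32.0 and 40.6 CPM. Every KO male exceeded every Het male, and the female groups overlapped. The log2 fold change was 3.78 ± 0.74 in males (adjusted p = 0.0179) and -0.81 in females (adjusted p = 0.451). The male call was lost without Het_M_119 (adjusted p = 0.0654) or Het_M_137 (0.0603). The effects of the sexes differed by 4.59, which did not pass the threshold (adjusted p = 0.230). Cyp2a12 made up 84.3% to 99.7% of the counts of this pair in every liver, and the summed counts rose by a log2 fold change of 0.91 in males (adjusted p = 0.0105) and had one of 0.50 in females (adjusted p = 0.0790). Cyp2a21-ps, a pseudogene on the other strand across Cyp2a22, had at most 0.681 CPM in any liver.

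Cyp2b9 was high in Het females and nearly silent in Het males. The Het females had 499, 475 and 185 CPM and the Het males 4.67, 1.46 and 1.503 CPM. The KO females had 63.2, 153 and 192 CPM and the KO males 61.1, 101 and 110 CPM. KO livers of both sexes lay between the Het groups, apart from KO_F_123, which was just above the lowest Het female. In males the log2 fold change was 5.13 ± 0.65 (adjusted p = 0.00221), and that call was kept on leaving out each liver in turn. In females it was -1.51 ± 0.55 with an adjusted p of 0.107. The effects of the sexes differed by 6.63 (adjusted p = 0.0385), a call that was lost on leaving out 8 of the 12 livers (all but Het_F_126, Het_M_119, KO_F_123 and KO_M_118), with adjusted p up to 0.145, and without the filter on low counts (0.0972).

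Cyp2b13 changed in opposite directions in the sexes. Its level was 158, 210 and 47.5 CPM in Het females and 0.334, 0 and 0 CPM in Het males, in which the counts were 10.1, 0 and 0. It was 9.48, 18.1 and 27.2 CPM in KO females and 1.63, 5.36 and 4.41 CPM in KO males. All KO females were below all Het females, and all KO males were above all Het males. The log2 fold change was -2.92 ± 0.72 in females (adjusted p = 0.0359) and 4.54 ± 0.97 in males (adjusted p = 0.0255), the latter depending on the prior count since 2 of the 3 Het males were at 0. The effects differed by 7.46, with an adjusted p of 0.0924, so the opposite directions were not shown to differ by this test. The female call was lost without Het_F_111 (adjusted p = 0.0744), Het_F_115 (0.0805), KO_F_108 (0.122) or KO_F_112 (0.0913), without the filter on low counts (0.0814) and with female livers alone (0.0691). The male call was lost without Het_M_125 (0.0877), Het_M_137 (0.0784), KO_M_122 (0.0583) or KO_M_136 (0.0614), without the filter (0.0622) and by limma on log2(TPM + 1), where the value was 1.25 (0.176).

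Cyp2b9 and Cyp2b13 summed gave a log2 fold change of 5.12 in males (adjusted p = 0.00290) and -1.78 in females (adjusted p = 0.0790), with a difference of 6.90 between the sexes (adjusted p = 0.0519). Cyp2b9 took 69.3% to 79.5% of the pair's counts in Het females, 87.0% to 89.4% in KO females, 94.95% to 97.4% in KO males and 93.3% to 100% in Het males. Cyp2b13 thus kept a smaller share of the pair in KO females than in Het females, without overlap. Rnf170-ps, a processed pseudogene inside Cyp2b13 on the same strand, had 1.83, 7.73 and 3.197 CPM in Het females and at most 0.214 CPM in any other liver. Its log2 fold change in females was -4.74 (adjusted p = 0.00409).

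Cyp2b10, the CAR target, did not pass the test in either sex. It stood at 62.4, 66.0 and 49.1 CPM in KO females and at 34.5, 166 and 6.42 CPM in Het females. In KO males it stood at 6.84, 6.62 and 2.15 CPM and in Het males at 28.2, 1.14 and 4.86 CPM. Within each Het group the livers spanned more than an order of magnitude, and the highest KO liver was 1.34 times the lowest in females and 3.18 times in males. The log2 fold change was -0.22 in females (95% interval -2.77 to 2.34, adjusted p = 0.924) and -1.12 in males (adjusted p = 0.626). Without Het_F_115 the female value was 1.52 and without Het_M_119 the male value was 0.78, so neither sex has a settled direction.

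**Figure D2:**
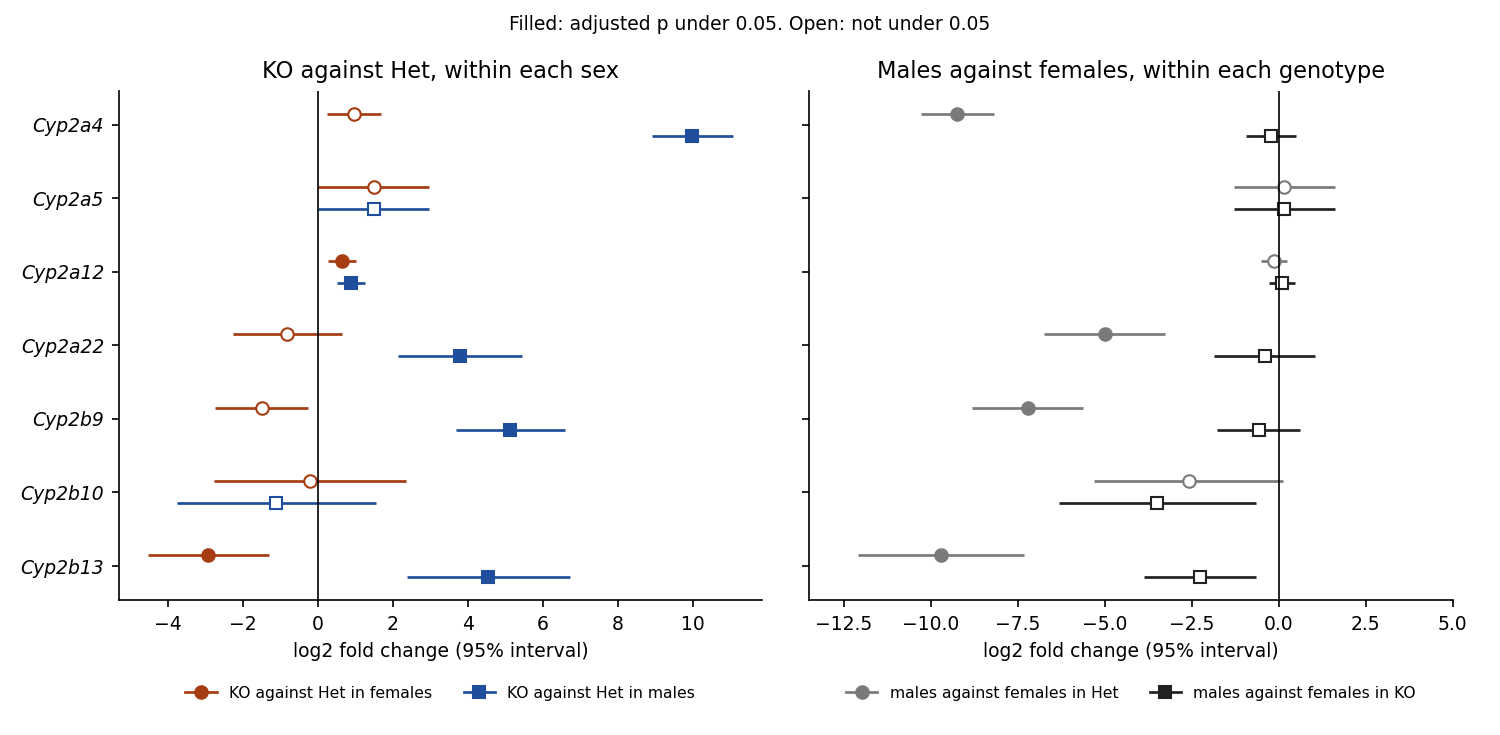
Log2 fold changes of the 7 genes with 95% intervals, KO against Het in each sex on the left and males against females in each genotype on the right, filled points marking adjusted p under 0.05. Male values reach 9.98 for Cyp2a4 on the left, and on the right 4 genes lie far below 0 in Het mice (to -9.71 for Cyp2b13) while in KO mice no gene passed the test.

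The same fits gave the sex difference within each genotype. In Het livers 4 of 7 genes were lower in males, where 0.429% of all genes were called lower and 0.382% higher. They were Cyp2a4 (log2 fold change of males over females -9.25, adjusted p = 9.21e-07), Cyp2b13 (-9.71, 0.00262), Cyp2b9 (-7.22, 0.00122) and Cyp2a22 (-5.00, 0.0183). The Cyp2a22 call was lost without Het_F_115 (adjusted p = 0.0589), Het_M_119 (0.108) or Het_M_137 (0.0741) and without the filter on low counts (0.0576). Cyp2a5 (0.15, adjusted p = 0.966) and Cyp2a12 (-0.14, adjusted p = 0.841) had small sex differences, and that of Cyp2b10 was wide (-2.59, adjusted p = 0.498).

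In KO livers none of the 7 genes was called between the sexes, where 0.0465% of all genes were called higher and 0.0103% lower in males. By edgeR 2 of the 7 had an unadjusted p under 0.05, and DESeq2 and limma called 0. The log2 difference of males over females was -0.24 for Cyp2a4 (95% interval -0.95 to 0.48, adjusted p = 0.807), -0.41 for Cyp2a22 (adjusted p = 0.831), -0.58 for Cyp2b9 (adjusted p = 0.699), 0.16 for Cyp2a5 (adjusted p = 0.947), -2.26 for Cyp2b13 (adjusted p = 0.297) and -3.49 for Cyp2b10 (adjusted p = 0.334). For Cyp2b13 and Cyp2b10 every KO male was below every KO female. These values do not show that the sexes were alike.

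KO males were also set beside Het females, the group in which the female-predominant genes are high. Here 1 of 7 genes was higher (Cyp2a12, 0.74, adjusted p = 0.0383) and 1 was lower (Cyp2b13, -5.18, adjusted p = 0.0109), beside 2.25% of all genes higher and 1.43% lower. Cyp2a4 in KO males had a log2 fold change of 0.73 over Het females (adjusted p = 0.234), Cyp2a22 -1.22 (adjusted p = 0.321) and Cyp2b9 -2.09 (adjusted p = 0.0708), with no overlap for Cyp2b9. KO males therefore reached the Het female range of Cyp2a4, but not that of Cyp2b13. The call of Cyp2b13 was lost without KO_M_136 (adjusted p = 0.0536), and that of Cyp2a12 on leaving out any of 7 livers (all but Het_M_137, KO_M_122 and the 3 KO females), with adjusted p up to 0.161, and on the scaled counts table (0.0515).

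Ordered by mean CPM, Het males were lowest for 5 of the 7 genes. For Cyp2a4 the order was Het males (0.697 ± 0.162), Het females (458 ± 129), KO males (761 ± 306) and KO females (896 ± 255), and only the first step passed the test. For Cyp2a22, Cyp2b9 and Cyp2b13 it was Het males, KO males, KO females and Het females. Of the steps between neighbours, that from Het to KO males passed for all 3 of these genes, that from KO males to KO females for none, and that from KO females to Het females for Cyp2b13 only. Cyp2a12 ran from Het males (442 ± 69.1) over Het females (488 ± 40.2) and KO females (757 ± 93.5) to KO males (813 ± 122.1), with the step between genotypes the one that passed. Cyp2a5 ran from Het females (837 ± 472) over Het males (932 ± 338) and KO females (2335 ± 1886) to KO males (2609 ± 1536). Cyp2b10 ran from KO males (5.20 ± 2.65) over Het males (11.4 ± 14.6) and KO females (59.2 ± 8.90) to Het females (68.9 ± 85.0), and for these 2 genes no step that was fitted passed. The comparison of Het males with KO females was not fitted. The highest group mean was 1285 times the lowest for Cyp2a4, 1247 times for Cyp2b13, 152 times for Cyp2b9, 32.9 times for Cyp2a22, 13.2 times for Cyp2b10, 3.12 times for Cyp2a5 and 1.84 times for Cyp2a12.

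**Figure D3:**
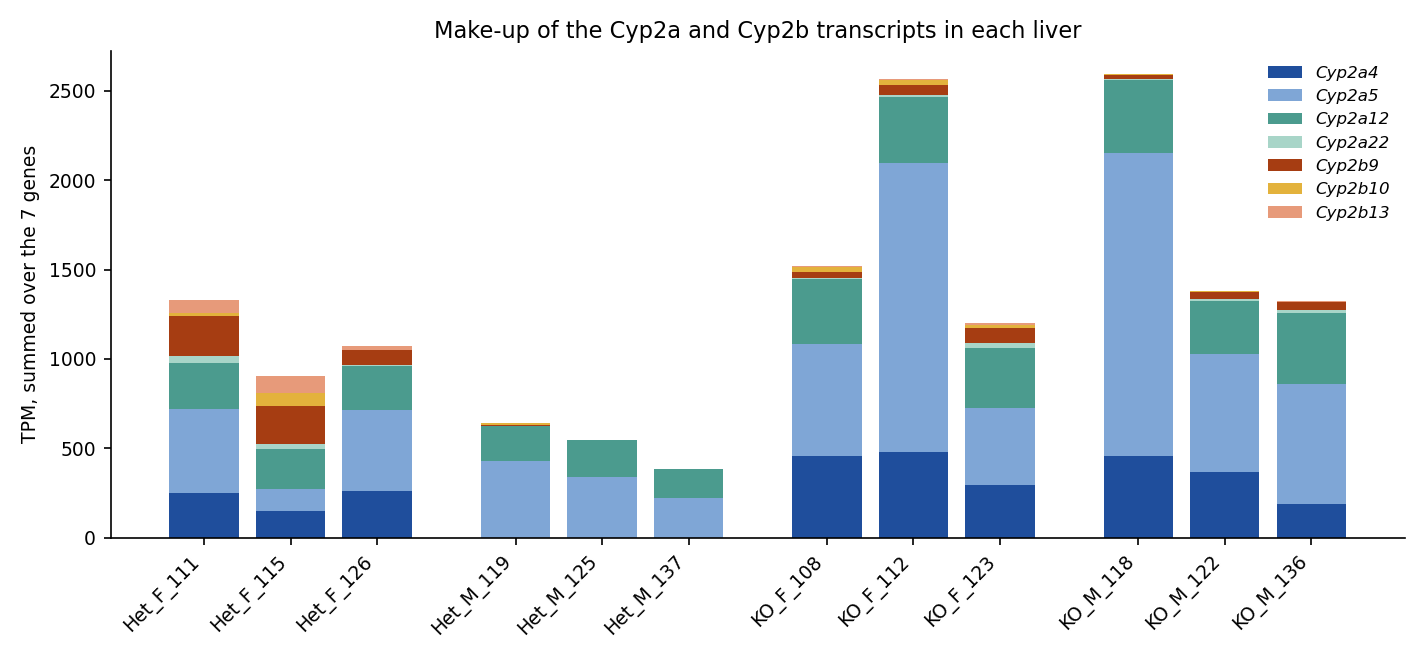
TPM of the 7 genes stacked for each of the 12 livers, with the height of a bar the summed TPM. Het males have the lowest sums, at 386 to 641 TPM, almost all of it Cyp2a5 and Cyp2a12, and the Cyp2b genes are a visible part in the Het females.

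On the TPM scale, which allows for transcript length and so compares genes, the 7 genes together made up 1328, 907 and 1074 TPM in Het females and 641, 548 and 386 TPM in Het males. In KO females they came to 1518, 2564 and 1203 TPM and in KO males to 2593, 1382 and 1322 TPM. The KO males thus lay wholly above the Het males in the summed level of the 7 genes. The 3 Cyp2b genes made up 23.5%, 42.2% and 9.79% of this sum in Het females, 4.14%, 3.56% and 9.46% in KO females, 1.12%, 3.27% and 3.71% in KO males and 0.179% to 1.94% in Het males. The Cyp2b share was therefore higher in each Het female than in any other liver. No test was made of these sums.

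**Figure D4:**
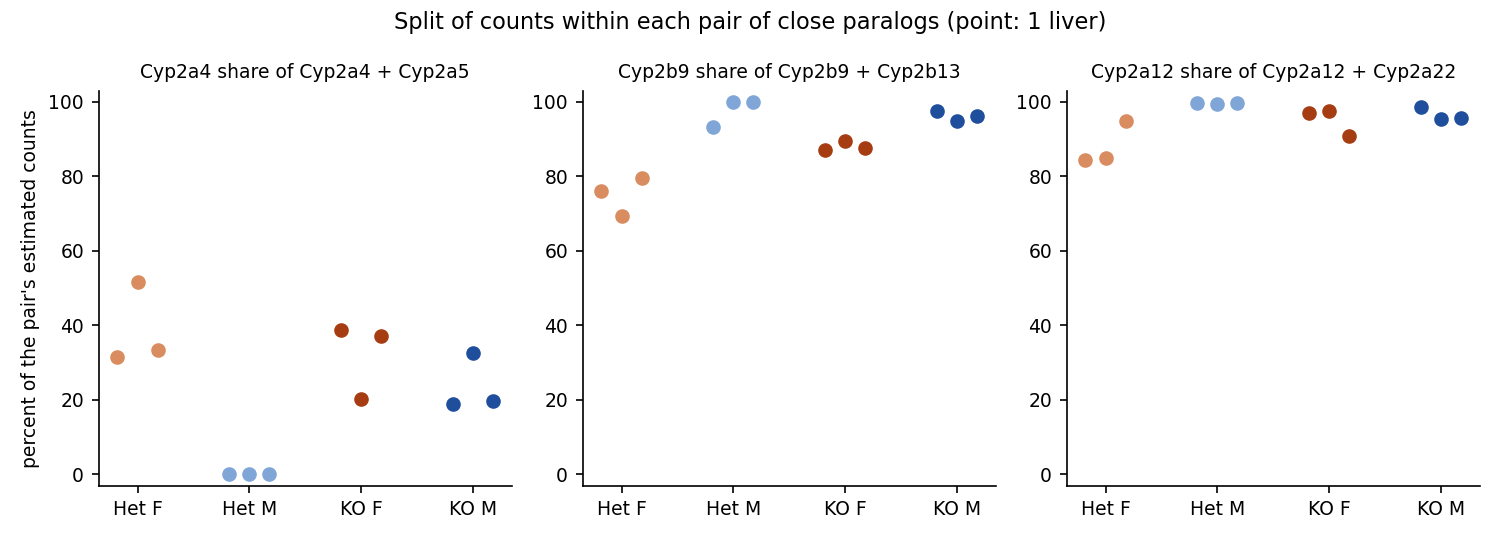
Share of the counts of each close pair taken by its first gene in each liver, as percent, by group. Cyp2a4 takes under 0.1% of its pair in the Het males and 18.8% to 51.6% in all other livers.

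Other Cyp2 genes in or beside the cluster were described together with Gm42375. Of the 4 tested, 2 were higher in KO males (Cyp2g1 and Gm42375), beside 4.11% of all genes, and 0 were called by edgeR in females, with median log2 fold changes of 1.06 and 0.16. In females 1 of the 4 had an unadjusted p under 0.05, and DESeq2 called 1, limma 1 on log2(TPM + 1) and 0 on log2(TPM + 0.1). The pseudogenes Cyp2a21-ps and Rnf170-ps, given above, are not counted among the 4. Cyp2g1, an olfactory P450 gene, had 1.49 ± 0.162 CPM in Het males and 6.86 ± 1.11 in KO males (log2 fold change 2.16, adjusted p = 0.0122). Cyp2f2, a P450 of periportal hepatocytes and airway cells, stood at 838 ± 99.9 and 691 ± 18.5 CPM in Het and KO males and at 386 ± 31.6 and 451 ± 155 CPM in Het and KO females. Cyp2s1 stayed at or below 0.433 CPM in all livers. Cyp2b23 and Cyp2t4 had 0 counts everywhere, and Cyp2b19, Cyp2b26-ps and Cyp2b27-ps had at most 2.78 counts in a liver, so that these 5 were not tested.

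Genes that supply the P450 enzymes with electrons and heme were described from a list of 14. In females 2 were higher (Hmox1 and Por) and 2 lower (Cyb5b and Uros), with a median of -0.37. In males 0 were called by edgeR, DESeq2 or limma and 4 had an unadjusted p under 0.05, with a median of -0.33. Por, the oxidoreductase on which all these P450 enzymes depend, stood at 417 ± 101 CPM in Het females, 961 ± 371 in KO females, 316 ± 114 in Het males and 496 ± 127 in KO males. Its female log2 fold change was 1.205 (adjusted p = 0.0428), a call that was lost on leaving out any of 9 of the 12 livers (all but Het_M_119, Het_M_137 and KO_F_123), with adjusted p up to 0.166. It was also lost on the length-scaled (0.0508) and scaled (0.0576) counts tables, without the filter on low counts (0.0832), with female livers alone (0.0906) and by limma on log2(TPM + 1) (0.0710) and log2(TPM + 0.1) (0.0653). Hmox1, which breaks heme down, had a log2 fold change of 2.11 in females (adjusted p = 0.00633). Cyb5b, a mitochondrial cytochrome b5, had one of -1.33 (adjusted p = 0.0209), lost without Het_F_126 (0.0533) or KO_F_112 (0.0562) and with female livers alone (0.0903). Alas1, the first enzyme of heme synthesis, ranged widely within groups (699 ± 596 and 493 ± 274 CPM in Het and KO females, 871 ± 505 and 436 ± 259 in Het and KO males) and was not called.

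Among 13 genes that control the response to drugs through CAR and its relative PXR (Nr1i2), 0 were called by edgeR in either sex, with 3 in females and 5 in males at an unadjusted p under 0.05. DESeq2 called 2 in each sex and limma 0. Nr1i3 stood at 249 ± 47.9 and 159 ± 34.02 CPM in Het and KO females and at 222 ± 89.6 and 228 ± 104 CPM in Het and KO males. Nr1i2 stood at 92.1 ± 31.8, 85.7 ± 21.2, 75.0 ± 33.0 and 60.9 ± 10.9 CPM in the same order, and Hnf4a, a hepatocyte factor that acts on many P450 promoters, at 659 ± 224, 756 ± 86.4, 667 ± 59.2 and 532 ± 38.5 CPM. Of 20 other genes known to respond to CAR or PXR, 3 were higher (Gstm2, Gstm3 and Ugt1a1) and 1 lower (Ces2a) in KO males, and 1 was lower (Ces2a) in KO females. Ces2a, a carboxylesterase, had log2 fold changes of -1.24 in females (adjusted p = 0.0222) and -1.55 in males (adjusted p = 0.00931), the former lost without Het_F_126 (0.0643), KO_F_108 (0.0754) or KO_F_112 (0.0510) and with female livers alone (0.0597). Gstm2, a glutathione transferase, had one of 1.21 in males (adjusted p = 0.00752). The medians of this list were -0.14 and 0.12, beside 0.01 and 0.02 over all genes.

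The growth hormone and sex hormone axis was described from 24 genes. In KO males 3 were higher (Cux2, Esr1 and Trim24) and 3 lower (Bcl6, Foxa1 and Ghr), and in KO females 3 were higher (Ezh1, Socs3 and Stat5b) and 1 lower (Igfals), with medians of 0.01 and -0.19. Cux2, the female-predominant repressor, was at 0.601 ± 0.202 and 32.9 ± 13.3 CPM in Het and KO males and at 29.2 ± 11.4 and 74.8 ± 43.5 CPM in Het and KO females. Its log2 fold change in males was 5.65 (adjusted p = 0.000833). Bcl6, the male-predominant repressor, was at 32.9 ± 33.4 CPM in Het males, with Het_M_137 at 71.5, and at 3.30 ± 0.253 in KO males (log2 fold change -3.30, adjusted p = 0.0280). Without Het_M_137 the fold change was -2.04, and the call was lost without any one of the 3 KO males, with adjusted p up to 0.0882, without the filter on low counts (0.0735), with male livers alone (0.0689) and by limma on log2(TPM + 1) (0.0687). Esr1, the estrogen receptor, rose in males (1.55, adjusted p = 0.00234). Ghr, the growth hormone receptor, fell in males from 543 ± 40.1 to 174 ± 41.0 CPM (log2 fold change -1.64, adjusted p = 0.0456), a call lost on leaving out any of 9 of the 12 livers (all but the 3 KO females), with adjusted p up to 0.142, and without the filter (0.126) and on the length-scaled (0.0562) and scaled (0.0676) counts tables. Stat5b, which passes on the growth hormone signal, had a log2 fold change of 0.56 in females (adjusted p = 0.0284), a call lost in 9 of 25 alternatives, with adjusted p up to 0.110. Those were leaving out any Het female, KO_F_108 or KO_F_112, female livers alone, library size scaling and limma on both TPM scales. Onecut1, which encodes HNF6, was not called.

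Other genes known for a sex difference in mouse liver were set beside the 7. Of 19 other female-biased genes, 9 were higher and 1 lower in KO males (median log2 fold change 6.20), and 2 were higher in KO females (median 0.29). In Het livers 11 of the 19 were lower in males and 1 was higher. That gene, Nat8, was also the one that fell in KO males, so these mice do not show it as female-biased. Of 18 male-biased genes, 9 were lower and none higher in KO males (median -2.84), 4 were lower and 1 higher in KO females (median -0.46), and 11 were higher in Het males than in Het females. Cyp2a4, Cyp2a22, Cyp2b9 and Cyp2b13 thus moved in KO males in the direction of most called genes of the female-biased list.

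**Figure D5:**
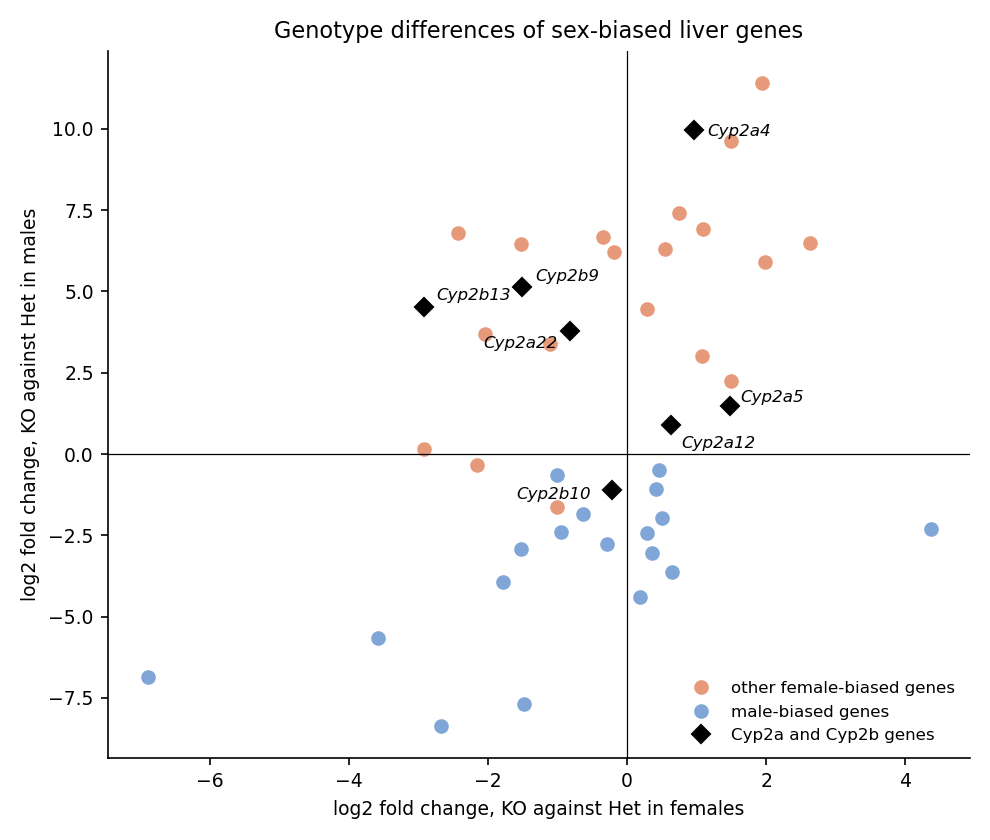
Log2 fold change of KO over Het in females (x) and in males (y) for the genes of the female-biased and male-biased lists and the 7 members, each point a gene. Most female-biased genes lie high on the male axis and on both sides of 0 on the female axis, with medians of 6.20 and 0.29, and the male-biased genes have medians of -2.84 and -0.46.

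Of the female-biased genes, Cyp39a1, an oxysterol hydroxylase, rose in both sexes (1.49 in females, adjusted p = 0.00482, and 2.23 in males, adjusted p = 0.000462). Among male-biased genes Cyp2u1, a fatty acid hydroxylase, fell in males from 92.7 to 6.01 CPM (log2 fold change -3.93, adjusted p = 9.73e-06) and in females from 12.0 to 3.44 CPM (-1.79, adjusted p = 0.00312). Ugt2b38, a glucuronosyltransferase, fell in males from 33.5 to 0.106 CPM (-7.69, adjusted p = 0.000229).

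Further lists bear on the timing, stress response and lobular position with which P450 genes vary. Of 6 clock output genes of the PAR bZip group and its repressor, 1 was higher (Nfil3, log2 fold change 2.58, adjusted p = 0.0112, or 0.0584 with female livers alone) and 1 lower (Hlf, lost without Het_F_111, Het_F_126, KO_F_108 or KO_F_112, with adjusted p up to 0.0787) in KO females, and 0 were called in KO males by edgeR, DESeq2 or limma, with 1 at an unadjusted p under 0.05. Of 8 targets of NRF2, which is known to act on Cyp2a5, 1 was higher in females (Nqo1) and 2 in males (Nqo1 and Srxn1), with medians of 0.33 and -0.08. The Srxn1 call (log2 fold change 1.04, adjusted p = 0.0305) was lost in 8 of 25 alternatives, namely without any Het male, KO_M_118 or KO_M_122, on both other counts tables and by limma on log2(TPM + 1), with adjusted p up to 0.116. Nqo1, a quinone reductase, had log2 fold changes of 1.58 in females (adjusted p = 0.000627) and 2.85 in males (adjusted p = 4.85e-06). Of 10 pericentral genes, 1 was higher in each sex (Rhbg) and 1 lower (Cyp2e1 in females, Oat in males), with medians of -0.75 and -0.62. At an unadjusted p under 0.05 by edgeR were 6 of the 10 in females and 5 in males. Their summed level was 6444 to 9996 and 3968 to 5835 CPM in Het and KO females. In Het and KO males it was 7247 to 8579 and 4389 to 5765 CPM. The Rhbg call was lost without Het_F_126 (0.0516) in females, and in males without Het_M_125, Het_M_137 or any KO male, with adjusted p up to 0.0949. Of 10 periportal genes 0 were called in either sex by edgeR, with 3 in females and 0 in males at an unadjusted p under 0.05. DESeq2 called 1 of them in females and limma 0, and in males both called 0.

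Markers of other liver cells moved with genotype for some cell types. Of 8 stellate cell markers 4 were lower in KO females (Dcn, Ecm1, Lrat and Reln) and 3 in KO males (Ecm1, Lrat and Reln), and their summed level was 415 to 511 and 148 to 188 CPM in Het and KO females and 284 to 408 and 142 to 302 CPM in Het and KO males. Of 8 endothelial markers 3 were lower in KO females, with sums of 296 to 369 and 164 to 235 CPM in Het and KO females and of 198 to 269 and 142 to 261 in Het and KO males. Of 8 Kupffer cell and macrophage markers 2 were higher in KO males (Marco and Vsig4), with sums of 121 to 165 and 167 to 477 CPM in Het and KO males and of 257 to 319 and 315 to 511 in Het and KO females. Of 8 cholangiocyte markers 1 was higher in KO females and 2 in KO males, at sums of 29.1 to 80.5 CPM over all livers. Of 6 tested neutrophil markers and 8 T and B cell markers edgeR, DESeq2 and limma called 0 in either sex, with 0 and 1 in females and 2 and 2 in males at an unadjusted p under 0.05, and their sums were at most 6.96 and 32.6 CPM in any liver. Of 9 hepatocyte markers 1 was higher (Hpx) and 1 lower (Ttr) in KO females and 1 was higher (Hpx) in KO males. No marker was at 0 in all livers. The part of cell composition in the values of the 7 genes was not tested.

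For each of the 7 genes, the 2 tested genes with the most similar pattern of log2 CPM over the 12 livers were named, with Pearson's r as a description of livers that share groups. For Cyp2a4, of which 1 is given, Gm42375 had r = 0.981. Cyp2b9 was nearest to Cyp2c69 (0.968) and Cyp2b13 (0.968), Cyp2b13 to Cyp2b9 (0.968) and Sult3a1 (0.954), and Cyp2a22 to Slc22a27 (0.965) and Cyp2b9 (0.959). Of these, Cyp2c69, Slc22a27 and Sult3a1 belong to the female-biased list. Cyp2c69, another P450, stood at 508 ± 245 and 176 ± 116 CPM in Het and KO females and at 0.740 ± 0.578 and 69.6 ± 45.1 CPM in Het and KO males, the same order of groups as Cyp2b9. Sult3a1, a sulfotransferase, had 0 counts in all Het males and 78.9 ± 54.7 CPM in Het females, at least 806-fold higher against a floor of 3 counts per library. For Cyp2a12 the nearest were Tas2r143 (0.966), at under 0.5 CPM in every liver, and Lrrc20 (0.962), which stood at 4.04 ± 0.579 and 7.41 ± 1.52 CPM in Het and KO females and at 3.87 ± 0.392 and 7.45 ± 0.718 CPM in Het and KO males. For Cyp2a5 they were Tmem41a (0.959) and Gm12843 (0.938), and for Cyp2b10 Lysmd2 (0.916) and Dusp16 (0.911), of which Gm12843 stayed at or below 0.317 CPM.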

How the data were processed

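RNA from 12 mouse livers was measured, and groups follow the labels. The authors depleted total RNA of ribosomal RNA, made stranded libraries, aligned reads with STAR 2.7.9a to GRCm39 with a GENCODE M34 annotation inside the nf-core RNA-seq pipeline and quantified genes with Salmon 1.10.1. The estimated counts deposited by the authors were rounded to whole numbers, since 12.0% were not whole, and were used for all tests. The deposited TPM values, which the authors' pipeline scales by transcript length and to a common total, keep no depth and were used for shares of the 7 genes and for alternatives.

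Genes were tested if 3 or more livers had 5 or more reads on the scale of the median library. Tests were run with edgeR 4.0.16 (R 4.3.3; quasi-likelihood F test, TMM scaling, robust estimation, prior count of 2) in a model with a mean for each of 4 groups over all 12 livers. Benjamini-Hochberg adjustment ran over 19350 genes and genes with adjusted p under 0.05 were called. Contrasts were KO against Het in each sex, their difference, males against females in each genotype, and KO males against Het females. Standard errors and 95% intervals were computed from the F statistic. The fits share livers, so their values for a gene are set side by side only. Against groups with at most 3 counts per liver, folds are bounds against a floor of 3 counts, which cover counting error only. The script was tested on simulated data.

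Depth was 30044812 to 43634073 counts per liver. None of the 66 pairs of livers held identical values, and none of the 12 pairs within a group agreed within sampling noise. Named genes are the 7, tested neighbours and overlapping genes, Por, Alas1, Nr1i3, Nr1i2, Hnf4a, Ghr, Stat5b, Bcl6, Cux2 and Onecut1, the 2 genes with smallest p of each list that is no marker list, and the 2 most similar in pattern to each of the 7, beside Xpa and Ercc8. Other genes named are those called within a list. One gene that this rule names is not reported here. The 7 genes and the lists were chosen with earlier results of these data known. Coordinates and sequences come from GRCm39 with GENCODE M39, a later release than that of the authors on the same build, aligned with Biopython 1.88 (Python 3.11.15), and promoter shares come from RefSeq on GRCm38.p6. Alternatives were other scalings (RLE, library size), filters, prior counts and count tables, no rounding, no robust estimation, 1 sex only, summed paralogs, DESeq2 1.42.0, limma 3.58.1 on log2(TPM + 1) and log2(TPM + 0.1), and leaving out each liver. RLE and library size scaling of mean CPM were chosen after seeing the data.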

Additional observations from a re-analysis of the deposited data

Results flagged for a closer look

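The genotype effect differed between the sexes for 2 of the 7 genes, by the interaction term of the edgeR fit. For Cyp2a4 the log2 fold change of KO over Het was 9.98 in males and 0.97 in females, a difference of 9.01 (adjusted p = 3.55e-05). For Cyp2b9 it was 5.13 and -1.51, a difference of 6.63 (adjusted p = 0.0385). The call for Cyp2b9 was lost on leaving out 8 of the 12 livers, with adjusted p up to 0.145, while that for Cyp2a4 was kept.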

How the results depend on the processing

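Without rounding, with other scalings, count tables, filters or tools, with paralogs summed and with each liver left out, 961 of 1058 alternative values of the 7 genes kept their direction and their side of the threshold, 56 lost the call, 16 gained it and 25 changed sign. Only called results can lose a call, and most of the 42 results behind these values were not called. The figure of 56 in 1058 therefore understates the share of calls lost. The 5 genes called in males stayed at 4 or 5 in settings with all livers and at 2 to 5 with a liver left out (2 without Het_M_137). In females, with 2 called, the number was 1 without a filter on low counts, 4 by DESeq2, 0 with female livers only and 0 to 2 with a liver left out. For the difference of the effects, with 2 called, it was 1 without the filter, 4 by DESeq2 and 1 to 2 with a liver left out. Between KO males and Het females, with 2 called, it was 1 on the scaled counts table, 4 by DESeq2 and 0 to 3 with a liver left out. The number called between the sexes was 3 or 4 in Het livers and 0 in KO livers throughout. The cause of these differences was not tested.

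Changes of sign were limited to values that were not called. In females Cyp2a22 was at 0.50 once summed with Cyp2a12, and Cyp2b10 at 0.59 on log2(TPM + 1), at 0.70 on log2(TPM + 0.1) and between -0.78 and 1.52 with a liver left out. In males Cyp2b10 ran from -1.66 to 0.78. The difference of the effects for Cyp2a5 was -0.015 with RLE scaling and by DESeq2 and ran from -0.59 to 0.90, and that for Cyp2b10 from -2.64 to 1.02. Between the sexes in Het livers Cyp2a5 ran from -0.26 to 0.41, or -0.49 summed with Cyp2a4. In KO livers Cyp2a4 ran from -0.51 to 0.046 (0.051 summed), Cyp2a5 from -0.45 to 1.06, and Cyp2a22 from -0.75 to 0.38 (0.072 summed). Between KO males and Het females Cyp2a22 was at 0.57 when summed.

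Counts over all genes ranged, with a liver left out, from 699 to 2549 in females (1867 called) and 487 to 1759 in males (1336 called), and the edgeR fit of female livers alone called 423 while DESeq2 called 3141. List counts moved likewise, for example from 7 to 13 of the female-biased list (10 called) and 3 to 9 of the growth hormone list (6 called) in males, and from 1 to 6 of the growth hormone list (4 called) in females. With 3 mice a group, low counts in Het males limit Cyp2b13, and the Salmon split of reads shared with Cyp2a5 may affect Cyp2a4 there. Litters are not given in the sources used here, so littermates could not be paired and litter was not in the model.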
